A study of Mus musculus with 2 samples.

Results

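Transcripts of 9 genes of TGF-beta signalling were followed across the cells of 2 postischemic mouse kidneys. The set held 3 ligands (Tgfb1, Tgfb2 and Tgfb3), 3 receptors (Tgfbr1, Tgfbr2 and Tgfbr3) and 3 genes that respond to the pathway (Ccn2, Acta2 and Smad7). They were chosen by name for their place in the pathway and were found by symbol among the 32285 genes counted. Ccn2 differed most widely. Its level was higher in the library labelled PHDTiEC in fibroblasts, in Sox17 endothelium and in most tubular segments. The ligands and receptors differed by less than 1.5-fold in nearly every cell class, as did most genes. Between 2.55% and 11.7% of the genes with enough counts passed 1.5-fold in the classes whose backgrounds are given below.

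TGF-beta ligands are secreted as latent complexes that bind the extracellular matrix and must be released before they act. An active ligand binds the type II receptor Tgfbr2, which recruits and phosphorylates the type I receptor Tgfbr1, while betaglycan (Tgfbr3) presents ligand, TGF-beta 2 above all, without a kinase of its own. The activated type I receptor phosphorylates SMAD2 and SMAD3, which enter the nucleus with SMAD4. In the injured kidney this signal is best known for driving fibroblasts and pericytes towards matrix-producing myofibroblasts. Smooth muscle actin (Acta2) marks those cells, connective tissue growth factor (Ccn2) is a secreted matrix protein, and SMAD7 is an inhibitor that feeds back on the receptor.

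Each kidney came from 1 adult male mouse on day 14 after a unilateral renal artery clamp of 25 minutes. Mice of the study were 8 to 10 weeks old at surgery. The PHDTiEC mouse carried floxed alleles of Phd1, Phd2 and Phd3 (Phd1f/f, Phd2f/f and Phd3f/f, genes Egln2, Egln1 and Egln3) with Cdh5-CreERT2, a tamoxifen-inducible Cre driven by an endothelial promoter. The Cre- control was a littermate without Cre, and its label does not give its Phd alleles. Both received 4 intraperitoneal doses of 3 mg tamoxifen every other day, started after the injury. Whole kidneys were dissociated and captured with the 10x 3′ chemistry, so a count stands for 1 captured molecule tagged with a unique molecular identifier (UMI).

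The libraries held 136004367 UMIs (Cre-) and 146758812 UMIs (PHDTiEC). Barcodes with 500 to 100000 UMIs, at least 200 genes and a mitochondrial share of at most 50% were kept, which left 8548 and 9309 cells with medians of 7500 and 7898 UMIs. The kept cells of the libraries shared 28 barcodes, where independent draws would share 11.7. The cells fell into 30 clusters, of which 21 were named from marker genes and 9 were left by number, and the names were a judgement on clusters already seen. All 10 pericyte markers were detected in the pericyte-like class, all 8 fibroblast markers in the fibroblast-like class, and all 5 arterial and all 4 capillary markers in the Sox17 and Plvap endothelial-like classes. Cluster 15 was led by Igfbp2, Stc2, Foxd1 and Tagln and fitted no list. Cluster 23 mixed endothelial with mural genes (Cldn5 and Sox17 with Rgs5 and Myh11).

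With 1 library per genotype, a difference between the libraries has no replicate check. Genotype, mouse, dissociation and library cannot be told apart, and no p-value was computed. Levels are given as CPM, the UMIs of a gene scaled to the UMI total of its class, and a difference as the log2 ratio of PHDTiEC over Cre-. Intervals in parentheses are exact 95% intervals that cover counting error only. In pooled counts per class, fewer expressing cells and less RNA per cell cannot be told apart. A ratio is called past 1.5-fold in either direction, for genes with at least 100 UMIs in the class.

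The floxed genes were looked at first. In the Sox17 endothelial-like class, Egln1 stood at 68.0 CPM in Cre- and 229 CPM in the library labelled PHDTiEC, a log2 ratio of 1.75 (1.47 to 2.05). Egln3 stood at 21.3 and 205 CPM (log2 ratio 3.26, 2.79 to 3.78), and Egln2 at 43.8 and 32.5 CPM (-0.43, -0.89 to 0.04). Egln1 and Egln3 were thus higher, not lower, in this class of the library labelled PHDTiEC. Their log2 ratios were 1.11 and 1.04 in Plvap endothelial-like cells, and 1.33 and 2.59 in cluster 23. Egln2 had 0.24 (-0.32 to 0.81) in Plvap endothelial-like cells and 0.62 (0.11 to 1.15) in cluster 23. For Egln1 the ratio was 0.10 in fibroblast-like, 0.11 in PT-like, 0.32 in injured PT-like and -0.14 in CD-like cells. For Egln3 it was 0.94 (26 UMIs in all), -0.20 (53), 0.18 (121) and -0.47 (117) in that order. In TAL-like cells, the thick ascending limb, Egln3 had 1.12 (0.32 to 1.98, 64 UMIs in all). A 3′ tag can lie outside a deleted exon, so these counts do not check the deletion, and directions below refer to the library as labelled.

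The promoters of Tgfb1 and Tgfb2 are shown because these ligands lay in different cells, with Tgfb1 mostly in macrophages and Tgfb2 mostly outside the immune classes. RefSeq promoters were given for 5 of the 9 genes, and the 250 bases before each start are printed 5′ to 3′ on the gene's strand (GRCm38.p6). The Tgfb1 window is chr7:25686752-25687001 on the plus strand, and the Tgfb2 window is chr1:186705990-186706239 on the minus strand. Capitals mark GC boxes (GGGCGG or CCGCCC), SMAD boxes (CAGAC or GTCTG), hypoxia cores (ACGTG or CACGT) and TATA boxes (TATAAA or TTTATA).
Tgfb1: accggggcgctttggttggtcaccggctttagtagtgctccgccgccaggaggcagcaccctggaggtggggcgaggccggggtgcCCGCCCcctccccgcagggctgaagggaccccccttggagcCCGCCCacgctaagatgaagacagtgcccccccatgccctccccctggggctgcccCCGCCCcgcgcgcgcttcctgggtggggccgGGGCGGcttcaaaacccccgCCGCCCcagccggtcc
Tgfb2: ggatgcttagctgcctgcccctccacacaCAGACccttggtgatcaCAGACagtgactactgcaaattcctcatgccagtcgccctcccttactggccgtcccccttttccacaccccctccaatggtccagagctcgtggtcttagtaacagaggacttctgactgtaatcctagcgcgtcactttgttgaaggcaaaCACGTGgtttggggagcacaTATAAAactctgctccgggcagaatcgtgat
The Tgfb1 window had a GC content of 75.2% and held 5 GC boxes and none of the other motifs. The Tgfb2 window had a GC content of 53.6% and held 2 SMAD boxes, 1 TATA box 31 bases before the start, and a palindrome that reads as a hypoxia core on both strands, where the matches overlap. It held no GC box. Of 32851 promoter windows of the same length, 32.7% held a GC box, 42.2% a SMAD box, 16.6% a hypoxia core and 12.4% a TATA box. A match describes these letters and no binding was measured here.

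Across all kept cells, 1 of the 9 genes was past 1.5-fold, against 4.2% of the 15780 genes with enough UMIs. That gene was Ccn2, at 34.5 CPM in Cre- and 77.3 CPM in the library labelled PHDTiEC, a log2 ratio of 1.16 (1.11 to 1.22), which ranked 39 from the highest. When the PHDTiEC class levels were weighted by the class composition of the Cre- library, Ccn2 stood at 69.1 CPM and its log2 ratio at 1.00. Tgfb3 followed with 3.03 and 4.55 CPM and a log2 ratio of 0.58 (0.39 to 0.78), which was 0.42 at equal composition. Acta2 had a log2 ratio of 0.36, or 0.25 at equal composition, and Smad7 of 0.27. The other 5 genes had log2 ratios between -0.09 and 0.06. In 13 of the 21 named classes, whose backgrounds are given below, 88 pairs of a gene and a class had at least 100 UMIs. Of these 11 were past 1.5-fold higher and 5 past 1.5-fold lower in the library labelled PHDTiEC. In these classes 2.55% to 11.7% of all genes passed either way. Ccn2 alone made up 7 of the higher pairs, and Acta2 made up 3 higher and 3 lower. The rest were Smad7 (1 higher) and Tgfb2 (2 lower), so the count is not spread over the 9 genes. The map of levels shows where each transcript lay.

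**Figure D1:**
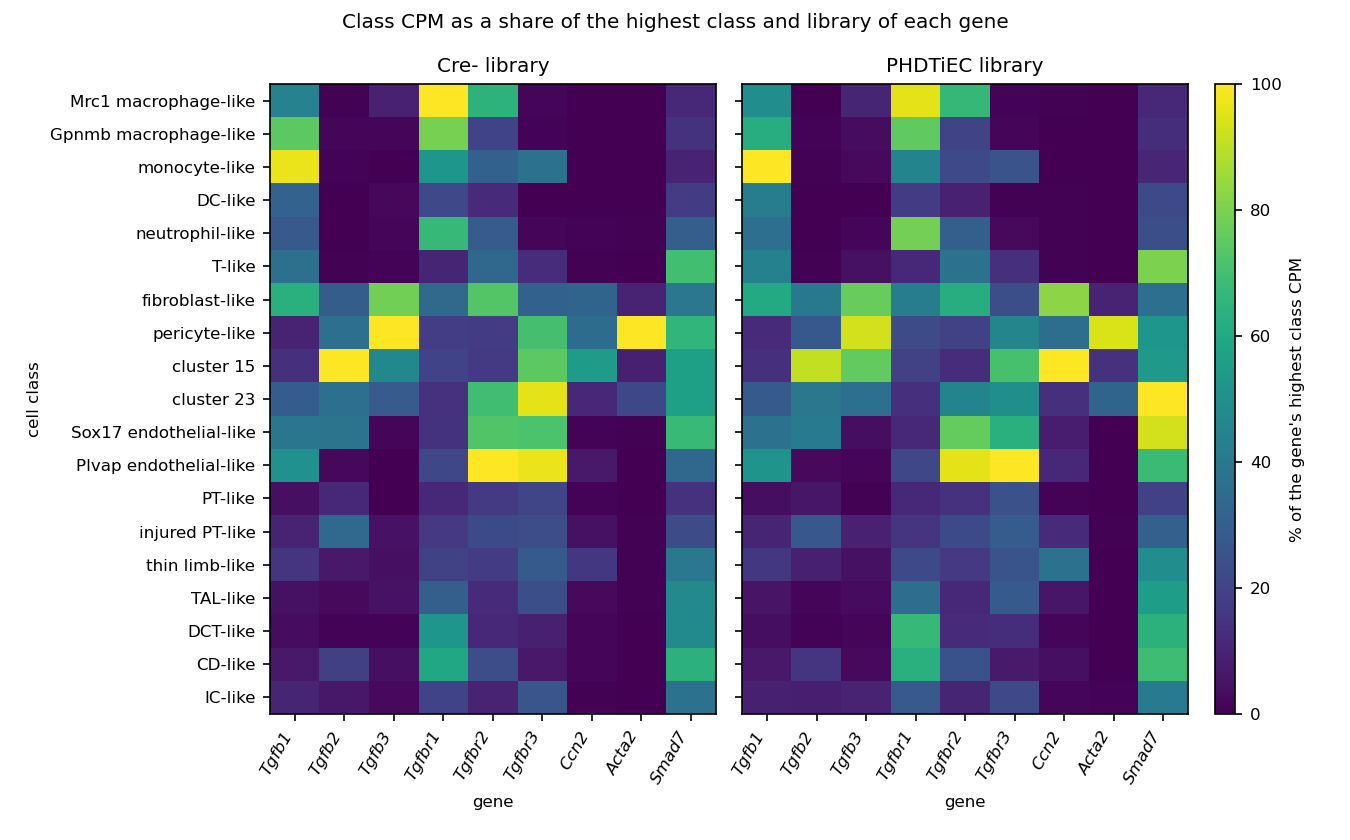
Level of each of the 9 genes (columns) in each cell class (rows) in the Cre- library (left) and the PHDTiEC library (right), as the percentage of that gene's highest class CPM over both libraries. Tgfb1 and Tgfbr1 are brightest in myeloid rows, and Tgfbr2 and Tgfbr3 in endothelial rows. Tgfb3 and Ccn2 are brightest in pericyte, fibroblast and cluster 15 rows, and Acta2 in the pericyte row.

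Tgfb1, the main TGF-beta isoform of leukocytes (chromosome 7, 25687002-25705077, plus strand), lay mostly in myeloid cells. The 6 macrophage and monocyte clusters held 57.9% of its UMIs in Cre- and 54.1% in the library labelled PHDTiEC, while they held 21.4% of all UMIs in each. Cluster 1, left by number and counted among them, held the largest share of any cluster, 16.1% and 16.5%, at 242 and 244 CPM. Among the larger named classes the monocyte-like class was highest in both libraries, at 378 CPM (345 to 413) and 389 CPM (350 to 431). The Gpnmb macrophage-like class followed at 291 and 243 CPM. Fibroblast-like cells stood at 246 and 239 CPM, next to it and within its counting interval in the PHDTiEC library. Below them came the Plvap endothelial-like class (197 and 202 CPM), the Mrc1 macrophage-like class (172 and 192 CPM) and the Sox17 endothelial-like class (153 and 145 CPM). Other immune classes lay in the same range, with T-like cells at 144 and 171 CPM and DC-like cells at 122 and 163 CPM. In the library labelled PHDTiEC the interval of monocyte-like cells lay above those of all the classes named here, while the intervals of the Gpnmb macrophage-like and fibroblast-like classes overlapped. PT-like cells, the proximal tubule, stood at 15.9 and 14.1 CPM.

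Tgfb1 differed little between the libraries. In 17 named classes with at least 100 UMIs no ratio passed 1.5-fold, and the log2 ratios ran from -0.26 in the Gpnmb macrophage-like class to 0.42 in the DC-like class. Of all genes, 2.55% to 11.7% passed in these classes. The Gpnmb value, lower in the library labelled PHDTiEC, had an interval of -0.36 to -0.16, and 46.2% and 38.2% of these cells carried Tgfb1 after each cell was thinned to 2000 UMIs. In the PT-like class the thinned shares were 2.11% and 2.33%.

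Tgfb2 (chromosome 1, 186622792-186705989, minus strand), the isoform that depends most on betaglycan, had another set of senders. Immune clusters held only 1.43% and 1.45% of its UMIs. Tubular clusters held 59.0% in Cre- and 48.4% in the library labelled PHDTiEC, while they held 63.8% and 61.5% of all UMIs. With equal weight per cluster their shares of Tgfb2 were 32.9% and 29.4%. Cluster 15 alone held 23.3% and 24.5% of Tgfb2 UMIs, and 2.82% and 3.07% of all UMIs. Cluster 15 had the highest level in each library, at 210 CPM (194 to 226) and 191 CPM (178 to 205). The next classes, whose intervals overlapped in Cre-, were Sox17 endothelial-like (80.9 and 86.3 CPM), pericyte-like (76.2 and 57.9 CPM), injured PT-like (71.7 and 57.0 CPM) and fibroblast-like cells (62.1 and 85.1 CPM). Endothelial classes were unlike each other, since Plvap endothelial-like cells stood at 4.69 and 5.64 CPM.

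Tgfb2 was lower in the library labelled PHDTiEC in proximal tubule and thick ascending limb. In PT-like cells it stood at 23.2 and 12.9 CPM (241 and 172 UMIs), a log2 ratio of -0.85 (-1.14 to -0.57), which ranked 81 from the lowest of 10123 genes. In TAL-like cells, the thick ascending limb, it stood at 5.21 and 2.70 CPM (64 and 36 UMIs, log2 ratio -0.95, -1.58 to -0.34). The TAL-like ratio was -1.76 after subtraction of free RNA, and 1.11% and 0.231% of thinned TAL-like cells had a UMI. Of the 29 TAL-like cells with Tgfb2 in Cre-, 4 held over 50% of the UMIs. The thinned shares of PT-like cells were low in both, at 3.52% and 1.66%, beside 0.408% and 0.165% of T-like cells, taken as the background that free RNA in the droplets gives. Injured PT-like cells had a log2 ratio of -0.33 (-0.51 to -0.16). Fibroblast-like cells went the other way at 0.45 (0.15 to 0.76), and neither value passed 1.5-fold.

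Tgfb3 (chromosome 12, 86056745-86079041, minus strand), an isoform known from mesenchymal tissue, was sparse, with 359 and 603 UMIs in all kept cells. Stromal clusters held 36.5% and 37.1% of them, while they held 6.48% and 8.34% of all UMIs. Pericyte-like cells stood at 44.2 and 41.2 CPM and fibroblast-like cells at 34.9 and 34.0 CPM, and these levels overlapped. In cluster 15 Tgfb3 stood at 20.7 and 33.6 CPM, a log2 ratio of 0.70 (0.27 to 1.14). Fibroblast-like cells had a log2 ratio of -0.04 (-0.46 to 0.40), so the higher overall level was not seen within them, and they were 1.95% of cells in Cre- and 3.31% in the library labelled PHDTiEC. The plot of ligand levels shows the separation of the isoforms by class.

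**Figure D2:**
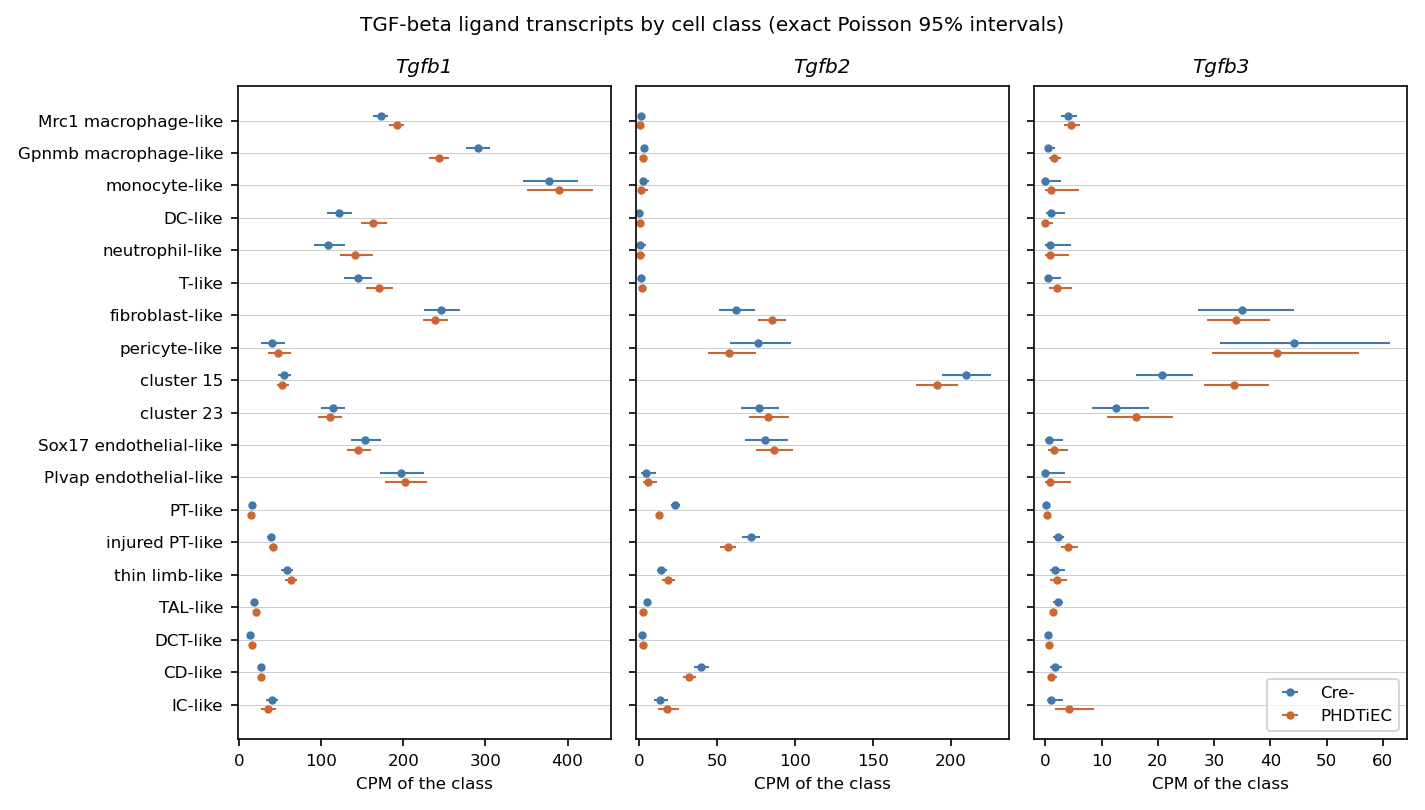
CPM of Tgfb1, Tgfb2 and Tgfb3 (horizontal axes, one scale per gene) by cell class, with a blue point for the Cre- library, an orange point for the PHDTiEC library and exact Poisson 95% intervals. Tgfb1 peaks in monocyte-like cells at 378 and 389 CPM, Tgfb2 in cluster 15 at 210 and 191 CPM, and Tgfb3 in pericyte-like cells at 44.2 and 41.2 CPM.

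Tubular clusters held the largest share of UMIs of each receptor, at 50.3% and 51.3% for Tgfbr1, 42.6% and 41.0% for Tgfbr2, and 60.2% and 63.5% for Tgfbr3, while they held 63.8% and 61.5% of all UMIs. Levels per class were ordered otherwise. Tgfbr1, the type I receptor kinase (chromosome 4, 47353222-47414931, plus strand), was highest among the larger named classes in Mrc1 macrophage-like cells, at 198 CPM (188 to 208) and 190 CPM (181 to 199). Gpnmb macrophage-like cells stood at 157 and 149 CPM and neutrophil-like cells at 133 and 156 CPM, with overlapping intervals. In the distal tubule, the collecting duct (CD-like) stood at 118 and 126 CPM and the distal convoluted tubule (DCT-like) at 104 and 133 CPM. Plvap endothelial-like cells stood at 42.2 and 41.9 CPM (97 UMIs in all) and Sox17 endothelial-like cells at 28.6 and 22.4 CPM. In 14 named classes none passed 1.5-fold, with log2 ratios from -0.36 in the Sox17 endothelial-like class to 0.47 in the IC-like class, the intercalated cells. Of all genes, 2.55% to 8.29% passed in these classes. The DCT-like ratio was 0.35 (0.23 to 0.48).

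Tgfbr2, the ligand-binding type II kinase (chromosome 9, 116084293-116175360, minus strand), was highest in Plvap endothelial-like cells, at 326 CPM (293 to 363) and 313 CPM (283 to 346). Sox17 endothelial-like cells (238 and 249 CPM), fibroblast-like cells (239 and 204 CPM) and Mrc1 macrophage-like cells (212 and 217 CPM) came next with levels that were not separated by their intervals in the Cre- library. None of 17 named classes passed 1.5-fold, where 2.55% to 11.7% of all genes did. The lowest log2 ratio was -0.50 in monocyte-like cells (-0.95 to -0.07), and fibroblast-like cells had -0.23 (-0.39 to -0.06). In cluster 23, Tgfbr2 stood at 226 and 147 CPM, a log2 ratio of -0.62 (-0.84 to -0.41).

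Tgfbr3, betaglycan (chromosome 5, 107106570-107289629, minus strand), was highest among the named classes in Plvap endothelial-like cells, at 61.0 and 62.8 CPM. Cluster 15 stood at 47.1 and 44.4 CPM and Sox17 endothelial-like cells at 44.9 and 40.0 CPM, with overlapping intervals. None of 8 named classes passed 1.5-fold, where 2.55% to 11.7% of all genes did. Pericyte-like cells had 36 and 29 UMIs (44.2 and 28.5 CPM), too few for the ratio to be read. Cluster 23 had a log2 ratio of -0.95 (-1.41 to -0.49), from 60.2 to 31.3 CPM. Together, 3 of 8 genes passed 1.5-fold in that mixed cluster, against 6.85% of its genes, namely both of these receptors and Smad7 at 0.82 (0.59 to 1.05).

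Ccn2 (chromosome 10, 24595442-24598683, plus strand) passed 1.5-fold in 7 of the 10 named classes with enough UMIs, each time higher in the library labelled PHDTiEC. In fibroblast-like cells it stood at 247 CPM (226 to 271) and 632 CPM (608 to 656), a log2 ratio of 1.35 (1.21 to 1.5). It was the only one of 9 genes past 1.5-fold there, against 8.29% of that class's genes. Cells with at least 1 Ccn2 UMI made up 19.6% and 42.8% of fibroblast-like cells thinned to 2000 UMIs (14 and 18 shallower cells left out), and 44.9% and 70.5% without thinning. The thinned shares of T-like cells, which should lack Ccn2, were 0.816% and 1.15%, with median depths of 3111 and 3234 UMIs against 9885 and 10372 in fibroblast-like cells. A larger share of fibroblast-like cells thus had a detected UMI, well above free RNA. Thinning equalizes depth but does not separate more expressing cells from more RNA per cell. Their share of all Ccn2 UMIs was 11.8% and 26.3%.

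Pericyte-like cells showed no such difference. Ccn2 stood at 272 CPM (237 to 310) and 276 CPM (245 to 310), a log2 ratio of 0.02 (-0.24 to 0.28), and 34.5% of thinned cells carried it in each library. None of 5 genes passed 1.5-fold in this class, against 10.7% of its genes. In the Cre- library, the intervals of the fibroblast-like and pericyte-like levels overlapped, and in the library labelled PHDTiEC they were far apart. Cluster 15 was higher in both, at 421 and 766 CPM (log2 ratio 0.86, 0.77 to 0.95), and 3 of its 9 genes passed 1.5-fold, against 3.77%. These were Tgfb3, Ccn2 and Acta2.

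Among tubular classes, Ccn2 was higher in the library labelled PHDTiEC in 4 and not in 2 others. Thin limb-like cells stood at 123 and 288 CPM (log2 ratio 1.23, 1.09 to 1.37, rank 7 from the highest of 8588 genes). Injured PT-like cells, marked by Havcr1 and Vcam1, stood at 34.4 and 93.7 CPM (1.44, 1.25 to 1.64). TAL-like cells stood at 20.6 and 46.0 CPM (1.16, 0.95 to 1.38), and CD-like cells at 12.9 and 31.3 CPM (1.28, 0.92 to 1.65). The PT-like class differed less, with 8.77 and 6.65 CPM (-0.40, -0.84 to 0.04), as did DCT-like cells, with 9.0 and 9.78 CPM (0.12, -0.34 to 0.58). Across alternative settings these last log2 ratios changed sign, from -0.79 to 0.94 in PT-like and from -0.97 to 0.76 in DCT-like cells. Ccn2 was the only one of 8 genes past 1.5-fold in thin limb-like cells (background 2.55%) and in injured PT-like cells (5.31%), and the only one of 7 in CD-like cells (4.91%). In TAL-like cells 3 of 8 passed, against 3.94%, with Tgfb2 and Acta2 lower. Cluster 7, a tubular cluster left by number, had a log2 ratio of 1.07 (0.77 to 1.38, rank 24 from the highest of 11474 genes). The thinned share of cells with Ccn2 was 3.09% and 10.4% in injured PT-like cells, 2.90% and 6.94% in TAL-like cells, and 15.6% and 19.2% in thin limb-like cells. Few cells carried much of it: 8 of 244 and 10 of 214 thin limb-like cells held at least 50% of the UMIs. The cells that did so numbered 8 and 12 in injured PT-like, 25 and 19 in TAL-like and 12 and 11 in CD-like cells. The counting intervals do not cover this spread over cells.

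In endothelium, Sox17 endothelial-like cells held 12 Ccn2 UMIs in 8 of 187 cells of the Cre- library and 149 UMIs in 32 of 228 cells of the library labelled PHDTiEC. The level was 6.74 CPM (3.48 to 11.8) and 58.4 CPM (49.4 to 68.6), a log2 ratio of 3.12 (2.27 to 4.10), which ranked 13 from the highest of 5759 genes. A few cells carried it: 5 cells held over 50% of the UMIs in the PHDTiEC library, and 0.602% and 6.39% of thinned cells had a UMI. Clustering at a resolution of 0.4 gave 1.49, and 30 principal components gave 1.84. Acta2 was also past the fold, lower, so 2 of 8 genes passed, against 6.79%. The Acta2 ratio of -0.59 stayed past the fold in 9 of 13 alternatives and ran from -1.73 to -0.076. Plvap endothelial-like cells stood at 53.5 and 88.6 CPM (log2 ratio 0.73, 0.25 to 1.22), but the thinned shares were 9.38% and 7.05%, and the ratio was 0.18 when the 7% of cells with the highest doublet scores were left out.

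Other measures moved with Ccn2 in some of these classes. In barcodes under 100 UMIs, which hold free RNA, Ccn2 stood at 37.9 and 96.3 CPM (log2 ratio 1.34, 1.10 to 1.59). Subtraction of that profile left the fibroblast-like log2 ratio at 1.33, the Sox17 endothelial-like ratio at 3.36, the injured PT-like ratio at 1.45, the thin limb-like ratio at 1.19, the TAL-like ratio at 1.06 and the CD-like ratio at 1.41. The summed level of 8 fibroblast markers was 45.5 and 24.7 CPM in Sox17 endothelial-like cells (4 and 3 of them at 0) and 23.8 and 15.5 CPM in thin limb-like cells (2 and 2 at 0). The sum was thus lower where Ccn2 was higher in these classes. It went with Ccn2 in CD-like cells (9.72 and 92.8 CPM, 1 and 0 at 0), TAL-like cells (17.6 and 38.0 CPM, 1 and 1 at 0) and injured PT-like cells (20.4 and 47.7 CPM, 1 and 0 at 0), and its part in the result was not tested. A sum of 10 immediate early genes, which respond to dissociation and were chosen after the values were seen, had log2 ratios of -0.05 in fibroblast-like, -0.02 in Sox17 endothelial-like, 0.08 in injured PT-like, 0.11 in thin limb-like, 0.26 in TAL-like and 0.33 in CD-like cells. The plot of Ccn2 by class sets both libraries side by side.

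**Figure D3:**
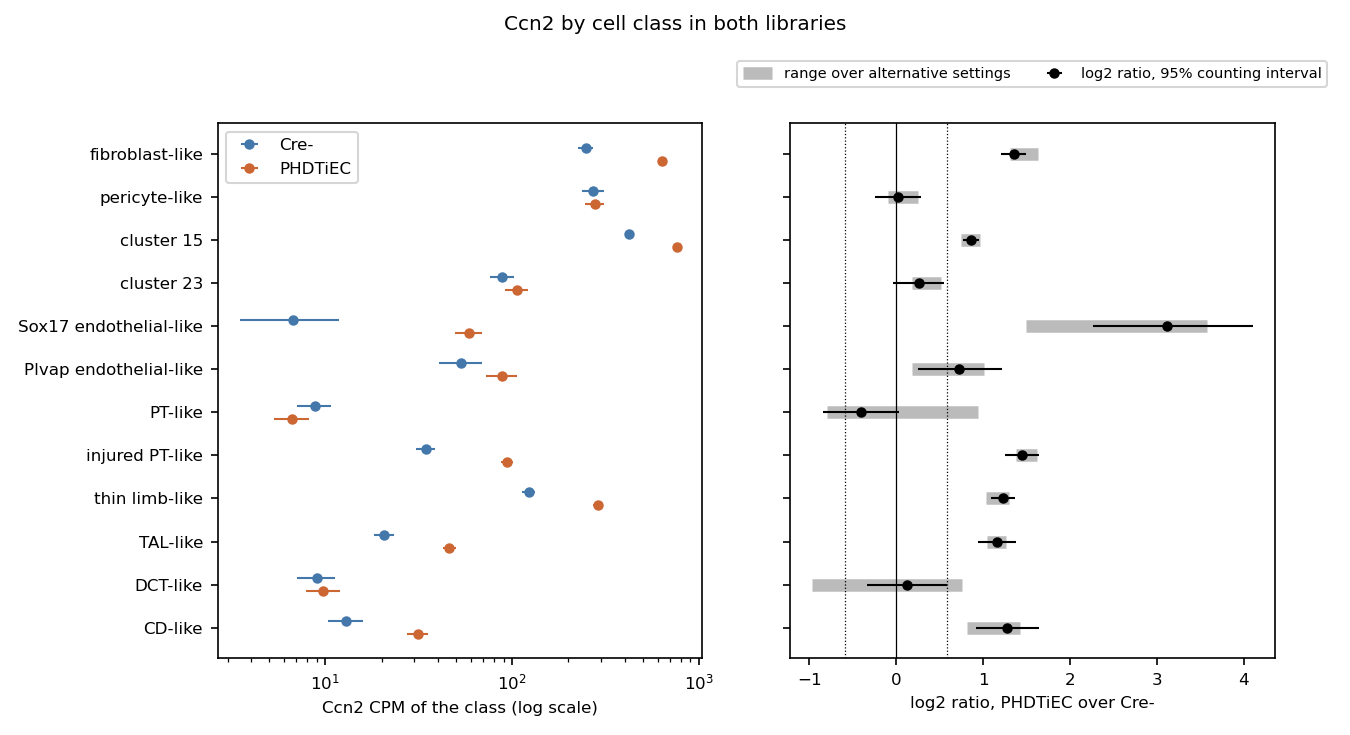
Left, Ccn2 CPM by cell class on a log axis for Cre- (blue) and PHDTiEC (orange) with exact Poisson 95% intervals; right, the log2 ratio with its 95% counting interval (black) and the range over alternative settings (grey), dotted lines at 1.5-fold. Fibroblast-like cells move from 247 to 632 CPM and Sox17 endothelial-like cells from 6.74 to 58.4 CPM, while pericyte-like cells stay at 272 and 276 CPM.

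Smad7, the inhibitor of the type I receptor, was highest with overlapping intervals in T-like (149 CPM), Sox17 endothelial-like (145 CPM), pericyte-like (140 CPM) and CD-like cells (137 CPM) of the Cre- library. Among the larger named classes of the library labelled PHDTiEC it was highest in Sox17 endothelial-like (199 CPM) and T-like cells (171 CPM), whose intervals overlapped. Cluster 23, left by number, had a Smad7 UMI in 36.1% of thinned cells of that library. Sox17 endothelial-like cells stood at 145 and 199 CPM (log2 ratio 0.46, 0.24 to 0.68), with a UMI in 47.6% and 70.6% of cells, or 19.3% and 27.4% after thinning. In Plvap endothelial-like cells it stood at 71.3 and 145 CPM (76 and 180 UMIs), a log2 ratio of 1.02 (0.63 to 1.43), the only named class past 1.5-fold of 17. There 30.5% and 28.2% of cells had a UMI, and 9.38% and 17.3% of cells deep enough for thinning (32 and 57 left out). The mean over cells of counts per 10000, which weights shallow cells like deep ones, gave a log2 ratio of 0.16. Together with Ccn2, 2 of 5 genes passed in Plvap endothelial-like cells, against 11.7% of their genes. A summed level of 8 macrophage markers was 759 and 1519 CPM in that class, and its part in the result was not tested. Injured PT-like cells (0.44, 0.25 to 0.62) and DCT-like cells (0.43, 0.30 to 0.56) had smaller ratios in the same direction, and fibroblast-like cells had -0.11 (-0.38 to 0.17).

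Acta2 (chromosome 19, 34241090-34255590, minus strand) lay in contractile cells. Pericyte-like cells held 40.8% and 33.4% of its UMIs and stood at 12344 and 11642 CPM, for a log2 ratio of -0.08 (-0.12 to -0.05). A UMI was found in 99.1% and 97.5% of thinned cells. Fibroblast-like cells stood at 1233 and 1230 CPM (log2 ratio -0.00, -0.07 to 0.07), and 52.3% and 51.0% of thinned cells carried it. The myofibroblast marker was therefore level between the libraries in the cells where Ccn2 differed 2.55-fold. Cluster 15 stood at 1067 and 1748 CPM (0.71, 0.65 to 0.77), and cluster 23 at 2675 and 3966 CPM (0.57, 0.52 to 0.62). Cluster 15 held 14.4% and 20.0% of all Acta2 UMIs, and fibroblast-like cells, 167 and 308 in number, held 9.75% and 14.8%.

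Acta2 ratios past 1.5-fold in classes that should not make it rested on few cells. In Gpnmb macrophage-like cells 1 cell held 77.9% of the UMIs in the PHDTiEC library, and the log2 ratio of 1.94 became -0.12 without the top cell of each library. It was the only one of 5 genes past 1.5-fold there, against 3.45%, and in Mrc1 macrophage-like cells none of 5 passed, against 3.64%. In IC-like cells 1 cell held 92.0% of the UMIs in Cre- and 72.1% in the library labelled PHDTiEC (log2 ratio 2.22, 1 of 5 genes past the fold, background 4.46%). In DCT-like cells the ratio was -1.98 (1 of 7 genes, 6.08%), and 2 cells held over 50% of the UMIs in each library. In PT-like cells it was 1.10, and with Tgfb2 it made 2 of 8 genes, against 4.39%. The sum of 10 pericyte markers moved the same way in these classes, at 9.5 and 36.9 CPM in Gpnmb macrophage-like cells, 57.9 and 258 CPM in IC-like cells, 66.5 and 33.5 CPM in DCT-like cells and 15 and 34.8 CPM in PT-like cells. At most 1 of the 10 markers was at 0 in any of them, and their part in the result was not tested. The plots of Acta2 with and without the top cell and of all ratios show these classes.

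**Figure D4:**
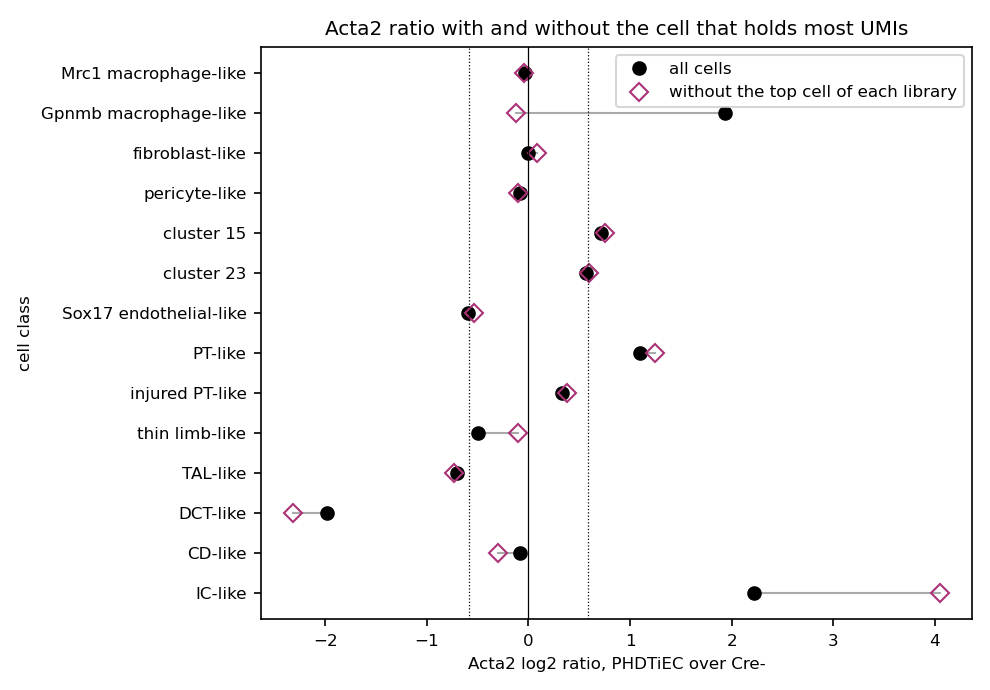
Acta2 log2 ratio, PHDTiEC over Cre- (horizontal axis), by cell class over all cells (black) and without the cell with the most Acta2 UMIs in each library (open diamonds), dotted lines at 1.5-fold. Pericyte-like and fibroblast-like cells stay near 0, while Gpnmb macrophage-like cells go from 1.94 to -0.12 and IC-like cells from 2.22 to 4.05.

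**Figure D5:**
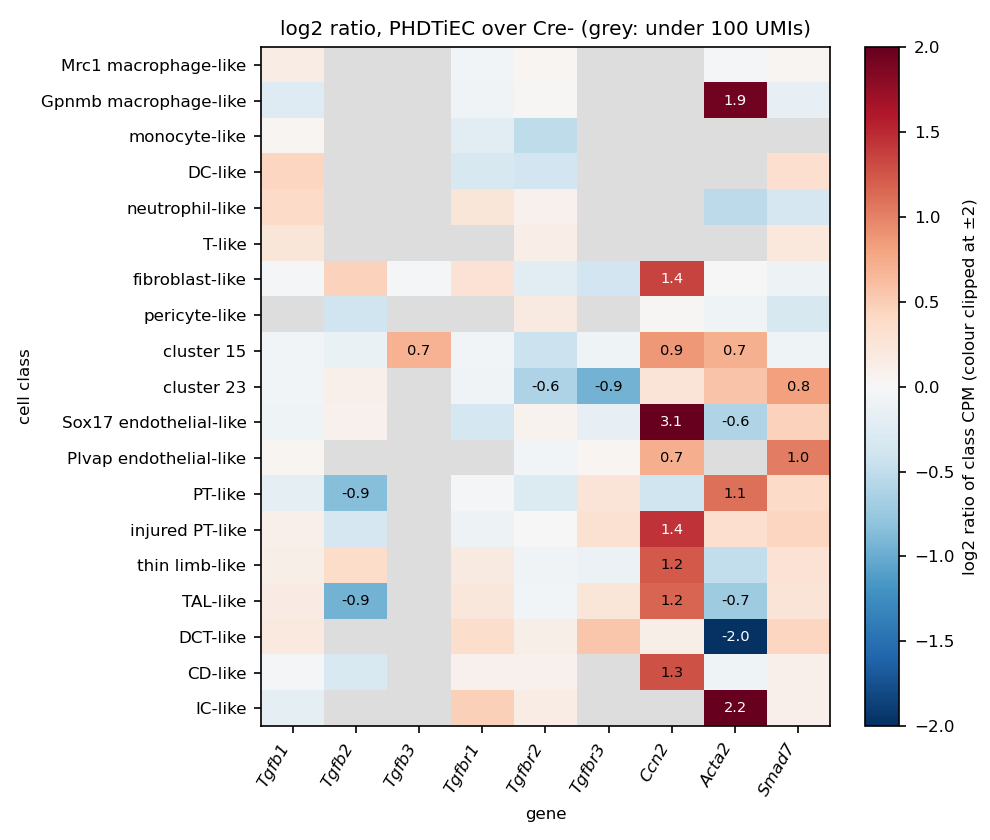
log2 ratio, PHDTiEC over Cre-, of each gene (columns) in each cell class (rows), in red where higher in the PHDTiEC library and blue where lower, grey under 100 UMIs, with values printed past 1.5-fold. The Ccn2 column holds values past 1.5-fold, all higher in the PHDTiEC library, in 7 named classes and in cluster 15, and the Tgfb1 and Tgfbr1 columns hold no value past 1.5-fold.

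Of 48 further genes of the pathway in 4 lists, those for latency and activation, co-receptors, SMADs and regulators, and response genes, 7 passed 1.5-fold over all kept cells, all higher in the library labelled PHDTiEC, against 4.2% of all genes either way. These levels were not weighted for class composition, and fibroblast-like cells were 1.95% and 3.31% of cells. Latency genes gave 2 of 14, the matrix proteins Ltbp2 (6.54 and 11.1 CPM, log2 ratio 0.77) and Ltbp4 (20.0 and 31.1 CPM, 0.64). None of 6 co-receptors and none of 12 SMADs and regulators passed, where Eng (0.50) and Smad2 (0.25) had the largest ratios. Response genes gave 5 of 16, led by the collagen Col1a2 (96.8 and 186 CPM, 0.94) and by Postn (2.98 and 5.51 CPM, 0.89). The collagens Col1a1 and Col3a1 and the actin-binding protein Tagln were the other 3. The median log2 ratio was 0.27 for the response list, 0.11 for latency genes, 0.17 for co-receptors and 0.12 for SMADs and regulators, beside 0.037 over all genes tested.

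Within fibroblast-like cells, the collagens did not pass. Here 3 of 16 response genes passed, all higher, where the class background was 8.29%, among them Cdkn2b, a cell cycle inhibitor (16.4 and 36.6 CPM, log2 ratio 1.15, 0.60 to 1.75). Thbs1, a matrix protein that releases latent TGF-beta, was the 1 of 12 latency genes to pass, at 355 and 595 CPM (0.75, 0.63 to 0.87). Ski and Smurf1, which restrain the pathway, made up 2 of 9 SMADs and regulators, at 0.59 each, and none of 6 co-receptors passed. The median log2 ratio of the response list was 0.02, beside 0.061 over all genes of the class.

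In Sox17 endothelial-like cells Tagln, a smooth muscle gene, was lower in the library labelled PHDTiEC, at 49.4 and 25.1 CPM (log2 ratio -0.98, -1.47 to -0.50), and 2 of 9 response genes passed 1.5-fold, where the class background was 6.79%. Smurf1 (0.92) and Tgif1 (-0.60) were 2 of 10 SMADs and regulators, and none of 7 latency genes and none of 5 co-receptors passed. The median of the response list was 0.02, beside 0.027 over all genes. In Plvap endothelial-like cells Fn1, fibronectin, stood at 27.2 and 87.0 CPM (1.68, 1.07 to 2.32). For Fn1, 1 cell held 51.9% of the UMIs in the PHDTiEC library. The endothelial co-receptors Eng (559 and 945 CPM, 0.76) and Acvrl1 (71.3 and 117 CPM, 0.71) made up the 2 of 5 co-receptors past the fold there. Smad6 (0.67) was 1 of 7 SMADs and regulators. Of 6 latency genes 2 passed, with Itgav lower (84.4 and 35.4 CPM, -1.25) and Ltbp4 higher (0.65). These counts stand beside a class background of 11.7%. The response list had 3 of 8 past the fold and a median of 0.50, beside 0.041 over all genes of the class.

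Injured PT-like cells had Lrrc32, which displays latent TGF-beta on the cell surface (6.20 and 17.4 CPM, log2 ratio 1.49), and Thbs1 (18.4 and 43.7 CPM, 1.25) among 3 of 11 latency genes past 1.5-fold, where the class background was 5.31%. Eng (4.82 and 15.9 CPM, 1.72) was 1 of 4 co-receptors, and Pmepa1, a target that limits SMAD signalling (114 and 203 CPM, 0.84, 0.73 to 0.96), was 1 of 11 SMADs and regulators. Response genes gave 3 of 13, with Col1a2 (7.69 and 20.4 CPM, 1.40) and Tagln (72.3 and 114 CPM, 0.66) the largest, and the list's median was 0.14, beside 0.044 over all genes. Eng, Col1a2 and Tagln belong to endothelial and stromal cells. The sum of 10 endothelial markers in this class was 85.7 and 185 CPM, and its part in the result was not tested. This holds for Lrrc32 too, so its UMIs are not assigned to injured tubule cells here. Thin limb-like cells had 1 of 12 response genes past the fold (background 2.55%), Ccn1, the close relative of Ccn2 (125 and 203 CPM, 0.70, 0.55 to 0.85).

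For each of the 9 genes, the 3 genes with the most similar pattern were found by Pearson correlation of log2(CPM + 1) over the 21 named classes, libraries summed, among 13057 genes. These classes share libraries, and the coefficients are descriptions. Acta2 was most like Tagln (r = 0.97), Kcnmb1 (0.96) and Fxyd1 (0.95), and Tgfb3 was most like Tagln (0.92), Islr (0.90) and Acta2 (0.89). Ccn2 was most like Cald1 (0.94), Lhfp (0.93) and Kirrel (0.93), with an r of 0.76 to Acta2 and of 0.71 to Tgfb2. Tgfb1 was most like St6galnac4 (0.95), 9930111J21Rik2 (0.92) and Rasa3 (0.90), and its r to Tgfb2 was -0.36. Tgfb2 was most like Afap1l2 (0.90), Ano10 (0.87) and Mrfap1 (0.86). The receptors were most like Pla2g15 (0.84), Pfkfb4 (0.80) and Sgpl1 (0.79) for Tgfbr1, Gm4951 (0.89), Polr3gl (0.81) and Ch25h (0.81) for Tgfbr2, and Nr1d2 (0.86), Tns2 (0.83) and Thra (0.82) for Tgfbr3. Smad7 was most like Kmt2a (0.89), Hdgfl2 (0.88) and Tnk2 (0.88).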

How the data were processed

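Single-cell RNA was measured in 1 library per genotype. The authors aligned reads with Cell Ranger to mm10 (version not given in the sources used here) and deposited raw UMI counts per gene and barcode, with no cell filter or normalization. The labels name a cell hashing library, which was not used here.

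Cells were filtered as stated in the report, normalized to 10000 per cell and clustered in Seurat 5.3.0 (R 4.3.3) on 2000 variable genes without the 9 genes, 20 principal components and a resolution of 0.8. Clusters took names from marker lists. UMIs were summed per class and library, with Poisson intervals for levels and Clopper-Pearson 95% intervals for shares and ratios (scipy 1.17.1). These cover counting error only. For shares of cells, each cell was thinned to 2000 UMIs. Coordinates are GENCODE vM21 on GRCm38.

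The genes and lists were chosen with earlier results of these data known. Named genes are the 9 genes, the floxed genes, the most similar genes (at least 500 UMIs) and, per pathway list, the 2 with the largest size of log2 ratio, with any further gene past 1.5-fold in the text chosen after its values were seen. One gene that this rule names is not reported here. The 14 immediate early and heat shock genes were also chosen then. The sums and intervals were tested on simulated Poisson counts. These lack the concentration of UMIs in few cells seen in these data, so the test does not cover it.

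Alternatives were other cell filters, a complexity minimum of 0.8 (log10 genes over log10 UMIs), removal of the 7% highest doublet scores (scrublet in scanpy 1.11.5, 598 and 652 cells), other clusterings, TMM scaling (edgeR 4.0.16), totals without mitochondrial and ribosomal UMIs, a mean over cells, removal of the top cell, and free RNA subtraction.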

Additional observations from a re-analysis of the deposited data

Results flagged for a closer look

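The Acta2 ratio between the libraries went in opposite directions in different classes. Its log2 ratio, PHDTiEC over Cre-, was 1.10 in PT-like cells, 1.94 in Gpnmb macrophage-like cells and 2.22 in IC-like cells, and -1.98 in DCT-like cells. The difference between classes was not tested, since each genotype has 1 library, and 1 or 2 cells held over 50% of the Acta2 UMIs in the PHDTiEC library in each of these classes.

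Barcodes under 100 UMIs, which entered no class, had a Ccn2 log2 ratio of 1.34 (1.10 to 1.59), with 183 UMIs in Cre- and 586 in PHDTiEC. The same barcodes had a Tgfb1 log2 ratio of -0.06 and an Acta2 log2 ratio of 0.32.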

How the results depend on the processing

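Of 1390 log2 ratios under alternatives, 1307 stayed within the counting interval, 81 moved outside it and 2 reversed. A reversal was counted only where the ratio under the main settings was past 1.5-fold. The sign changes of Ccn2 in PT-like and DCT-like cells are therefore not among the 2. Ccn2 stayed past 1.5-fold under every alternative run for all kept cells and for the fibroblast-like, Sox17 endothelial-like, injured PT-like, thin limb-like, TAL-like and CD-like classes and cluster 15, and in 10 of 12 for Plvap endothelial-like cells. No paired analysis was possible because each genotype has 1 library and no test was run. With no replicates, no alternative addresses variation between mice. The cause of a move was not tested.

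With the mean over cells of counts per 10000, the log2 ratio of Ccn2 was 1.09 over all kept cells, 1.64 in fibroblast-like, 0.25 in Plvap endothelial-like and 1.03 in thin limb-like cells. Under the same mean, Smad7 was 0.16 in Plvap endothelial-like cells, Tgfb2 was -1.34 in PT-like cells, and Acta2 was 0.65 in Gpnmb macrophage-like, 0.13 in PT-like, -2.71 in DCT-like, -0.18 in TAL-like and 1.54 in IC-like cells. Without the 7% highest doublet scores, Ccn2 was 1.62 in fibroblast-like and 0.18 in Plvap endothelial-like cells, and Acta2 was 0.36 in PT-like, -1.71 in TAL-like and 4.43 in IC-like cells. At a resolution of 0.4, Ccn2 was 1.49 in Sox17 endothelial-like and 0.82 in CD-like cells, Acta2 was -0.076 in Sox17 endothelial-like and 0.27 in PT-like cells, and the gene and class pairs past 1.5-fold numbered 7 higher and 3 lower. With 30 principal components, Ccn2 was 1.84 and Acta2 -1.73 in Sox17 endothelial-like cells, and Acta2 was -0.92 in TAL-like and -0.96 in DCT-like cells. With the 9 genes among the variable genes, Acta2 was -1.61 in DCT-like cells. After subtraction of free RNA, Acta2 was 4.38 in Gpnmb macrophage-like and -1.69 in TAL-like cells, and Tgfb2 was -1.76 in TAL-like cells. Acta2 reversed in Gpnmb macrophage-like cells, to -0.27 under the complexity minimum and -0.12 without the top cell, and was 4.05 in IC-like cells without it.

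With no minimum of UMIs, 24.1% of genes were past 1.5-fold over all kept cells. Without the highest doublet scores, macrophage and monocyte clusters held 62.8% (Cre-) and 60.1% (PHDTiEC) of Tgfb1 UMIs. With equal weight per cluster these shares were 38.7% and 36.3%, tubular clusters held 32.9% and 29.4% of Tgfb2, and stromal clusters held 64.6% and 54.1% of Tgfb3. Under the complexity minimum, tubular clusters held 56.6% and 46.5% of Tgfb2.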
